A study of Mus musculus with 8 samples.

Results

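The gene set described here is Zfp462 with 9 genes for the H3K9 methylation and HP1 machinery: Ehmt1, Ehmt2, Wiz, Zfp644, Cbx1, Cbx3, Cbx5, Suv39h1 and Setdb1. The 10 genes were chosen by name from what is known of the protein complexes, with earlier results of these data known. They are 10 of the 55401 genes in the count table. All 10 had enough counts to be tested, among 17125 genes that did. RNA was sequenced from the R1 line of mouse embryonic stem cells (ESCs), in 4 groups of 2 libraries. The groups were control ESCs with a wild-type genotype and Zfp462 knockout ESCs, both kept on gelatin in serum with LIF at day 0, and control and knockout embryoid bodies (EBs) grown from them in suspension for 3 days. The comparisons address how knocking out Zfp462 affects ESC self-renewal and differentiation. The labels call the knockout cells stable lines, and they give neither the edited part of the gene nor whether a line is 1 clone, nor whether replicates were separate cultures. The p-values therefore measure the spread between these libraries, which may be technical.

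Methylation of lysine 9 on histone H3 (H3K9) marks silenced chromatin. Ehmt2 encodes G9a and Ehmt1 encodes GLP, which act as a heterodimer to mono- and dimethylate H3K9 in gene-rich chromatin, and the zinc finger proteins Wiz and Zfp644 bind the dimer and link it to DNA. Suv39h1 places trimethylation at the repeats around centromeres, and Setdb1 does so at endogenous retroviruses. The HP1 proteins alpha (Cbx5), beta (Cbx1) and gamma (Cbx3) bind methylated H3K9 through their chromodomains. Zfp462 is a large zinc finger protein known to associate with G9a-GLP and HP1 in mouse ESCs, where this machinery keeps genes of other lineages silent.

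Between groups, Suv39h1, Cbx1 and Cbx5 showed the clearest changes among the 9 partners, so the 250 bases upstream of their annotated starts are shown, read from RefSeq (build GRCm38.p6) on the strand of the gene. Capitals mark letters that match the binding motif of the transcription factor NRF1, searched on both strands as GCGCA and GCGC with any 1 base between them. The windows lie at chrX:8074761-8075010 for Suv39h1 (minus strand), chr11:96788885-96789134 for Cbx1 (plus strand) and chr15:103239853-103240102 for Cbx5 (minus strand).
Suv39h1: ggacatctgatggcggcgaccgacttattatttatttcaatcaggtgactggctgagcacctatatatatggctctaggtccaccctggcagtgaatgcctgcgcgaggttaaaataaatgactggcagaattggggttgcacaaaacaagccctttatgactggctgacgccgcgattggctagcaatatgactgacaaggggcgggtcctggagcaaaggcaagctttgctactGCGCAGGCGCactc
Cbx1: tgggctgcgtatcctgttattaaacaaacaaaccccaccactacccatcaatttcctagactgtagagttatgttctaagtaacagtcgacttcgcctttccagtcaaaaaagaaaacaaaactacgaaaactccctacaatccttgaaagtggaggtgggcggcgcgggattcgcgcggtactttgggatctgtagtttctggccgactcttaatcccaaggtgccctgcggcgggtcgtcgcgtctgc
Cbx5: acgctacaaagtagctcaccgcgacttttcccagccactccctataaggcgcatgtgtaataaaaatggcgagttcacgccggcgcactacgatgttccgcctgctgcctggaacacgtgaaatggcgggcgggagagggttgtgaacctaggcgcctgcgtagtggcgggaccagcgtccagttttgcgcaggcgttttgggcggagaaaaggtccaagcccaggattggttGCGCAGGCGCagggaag
The NRF1 letters occurred in 3 of the 9 windows matched to these genes (Ehmt1, Cbx5 and Suv39h1) and in 3.74% of 32851 windows of that length. They were thus present upstream of Suv39h1 and Cbx5, whose levels moved in opposite directions from ESCs to EBs in control cells, and not in the Cbx1 window. The Cbx1 window held 16 CpG dinucleotides, that of Cbx5 22 and that of Suv39h1 11, against a median of 6 over all windows. The 3 windows and the motif were chosen after the values were seen, and a match describes the letters only. Further motifs were searched in the same windows. The GC box (GGGCGG) occurred in each of the 9, against 32.7% of all windows. The CCAAT box occurred in those of Wiz, Cbx5, Suv39h1 and Setdb1, against 33.8%, and the TATA box in none, against 12.4%. The windows compared with were not matched for CpG content.

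Library totals ranged from 12119763 to 16228426 counts. Levels are given in CPM, counts scaled to library size with TMM factors, which adjust that size for composition. The ESC markers summed to 4933 to 5019 CPM for ESC controls and 3629 to 3715 CPM for ESC knockouts, with all 8 of 8 markers detected in every library. In EBs the order was the other way, with 2296 to 2398 CPM in the control and 2538 to 2570 CPM in the knockout. Single markers differed in direction: Klf4 was higher in knockout ESCs and the rest lower. In knockout EBs Pou5f1 and Sox2 were lower and the rest higher. The 6 epiblast markers summed to 2014 to 2154 CPM for EB controls, 1184 to 1203 CPM for EB knockouts and at most 379 CPM in ESCs. The 10 markers of extraembryonic endoderm summed to 2452 to 2586 CPM for ESC controls, 8884 to 10806 CPM for ESC knockouts, 2876 to 3032 CPM for EB controls and 5685 to 6211 CPM for EB knockouts. The knockout groups thus differed from the controls in cell state markers, and the part of these markers' cell types in the results on the 10 genes was not tested. In bulk RNA, fewer cells of a type and less RNA per cell cannot be told apart. A pair of libraries stood apart. In knockout ESC replicate 2, levels followed the GC content of the gene: across 11328 genes the correlation of GC content with the log2 difference between replicates was 0.691 in knockout ESCs, against -0.043 to 0.002 in the other groups. Knockout EB replicate 1 held adult liver transcripts, with 14 liver markers summing to 1971 CPM against 4.87 to 27.2 CPM in the other 7 libraries. The 8 markers of feeder fibroblasts summed to 18.3 to 26.9 CPM throughout, with Twist2 at 0.

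Zfp462 RNA was lower in the knockout libraries but still present. Zfp462 (ENSMUSG00000060206.11) lies at chr4:54945048-55083563 on the plus strand (mm10), and its counted exons span 10702 bases. It stood at 183.2 and 196.9 CPM for ESC controls and at 104.0 and 106.6 CPM for ESC knockouts. In EBs it stood at 153.5 and 130.3 CPM in the control and at 102.0 and 102.5 CPM in the knockout. Every knockout library lay below every control library, and the 4 knockout libraries lay within 102.0 to 106.6 CPM of each other. Knockout ESCs held 55.4% of the control level (95% interval 47.4% to 64.7%), a log2 fold change of -0.85 ± 0.10 (standard error, SE; edgeR adjusted p = 0.000366). Knockout EBs held 72.0% (61.7% to 84.1%), a log2 fold change of -0.47 ± 0.10 (edgeR adjusted p = 0.0207). The counts cover all exons and so do not tell transcripts with the edit from intact ones.

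The control level of Zfp462 itself fell with differentiation, from 190.1 ± 9.72 CPM (SD, n = 2) in ESCs to 141.9 ± 16.4 CPM in EBs, a log2 fold change of -0.42 ± 0.10 (edgeR adjusted p = 0.016). In knockout cells the corresponding change was -0.04 ± 0.10 (adjusted p = 0.813). The knockout effect differed between the stages by 0.38 ± 0.14 and did not pass (adjusted p = 0.304). The ESC call held without any 1 of its 4 libraries. The EB call did not survive leaving out replicate 1 of the control EBs (adjusted p = 0.212) or either knockout EB library (0.158 and 0.116), and the fall in control cells was lost without control ESC replicate 1 (0.0773), control ESC replicate 2 (0.166) or control EB replicate 2 (0.13).

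**Figure D1:**
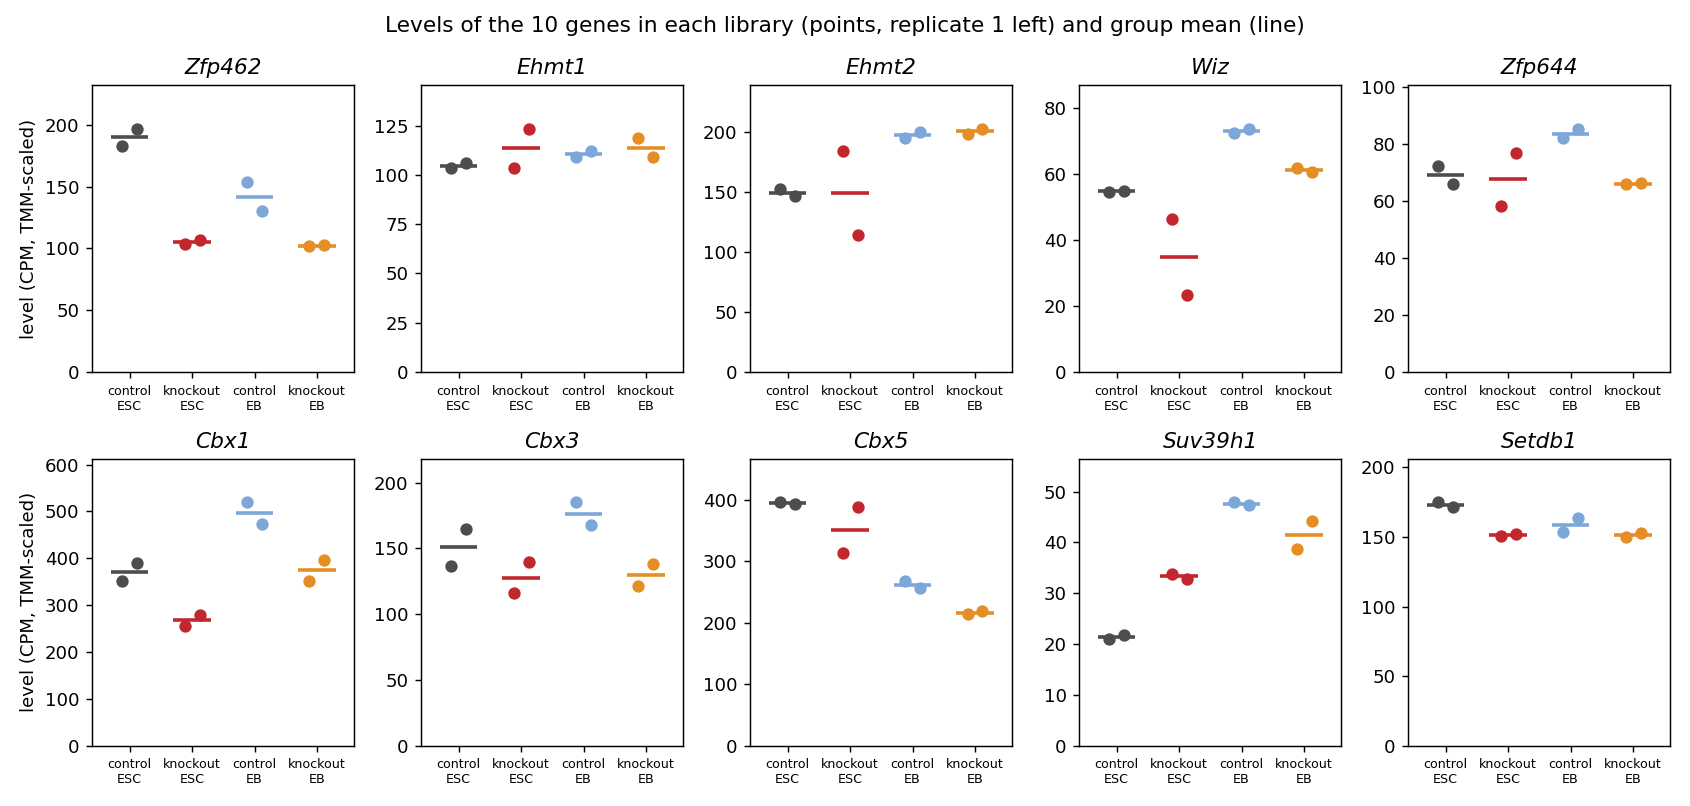
Levels of the 10 genes in CPM (y axis, from 0) in the 8 libraries, with 1 point per library (replicate 1 on the left of each group) and a line at the mean of each group of 2. Zfp462 lies at 102.0 to 106.6 CPM in the 4 knockout libraries and at 130.3 to 196.9 CPM in the 4 controls, while Ehmt2 and Wiz are split between the 2 knockout ESC libraries.

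Across the set, knockout ESCs had 1 gene higher (Suv39h1) and 2 lower (Zfp462 and Cbx1) at an edgeR adjusted p under 0.05, against a background of 14.5% of all genes tested. Knockout EBs had none higher and 2 lower (Zfp462 and Cbx1), against a background of 6.8%. With Zfp462, the target itself, set aside, 2 partners of 9 were called in ESCs and 1 of 9 in EBs. The median log2 fold change of the 10 genes was -0.18 in knockout ESCs and -0.26 in knockout EBs, beside -0.03 and 0.00 over all genes tested. Zfp462, the target itself, is part of these medians and of the counts that follow. Both knockout ESC libraries lay below both controls for 5 of the 10 genes and above them for 1, where 27.5% and 25.1% of all genes tested did so. Both knockout EB libraries lay below both controls for 8 genes and above them for 0, where 29.4% and 30% of all genes tested did so. Only Ehmt1 and Ehmt2 overlapped between control and knockout EBs. With both libraries that stood apart left out, 6 genes passed in ESCs, 2 higher (Suv39h1 and Ehmt2) and 4 lower (Zfp462, Cbx1, Cbx5 and Cbx3), and 5 passed in EBs, all lower (Zfp462, Cbx1, Cbx5, Cbx3 and Zfp644). In those fits 19.9% and 10.8% of all genes tested passed.

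**Figure D2:**
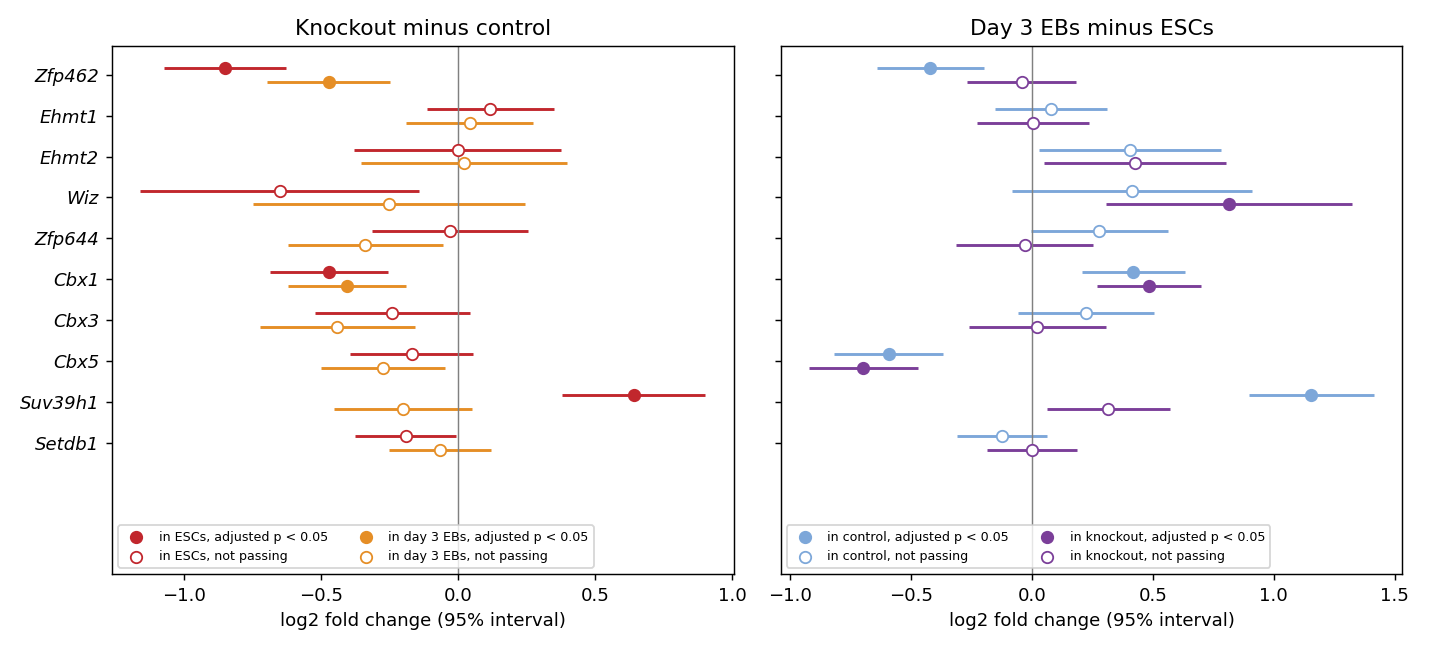
Log2 fold changes of the 10 genes with 95% intervals (x axis): knockout minus control on the left, EBs minus ESCs on the right. Filled points passed an adjusted p of 0.05 and open points did not. Suv39h1 lies at 0.64 in knockout ESCs and -0.20 in knockout EBs, and Cbx1 lies at -0.47 and -0.41.

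The genes for the catalytic dimer were close to their control levels in EBs. Ehmt1 (GLP; ENSMUSG00000036893.17, chr2:24789928-24919614, minus strand) stood at 103.2 and 106.0 CPM for ESC controls, 103.5 and 123.4 CPM for ESC knockouts, 108.9 and 112.2 CPM for EB controls and 118.5 and 109.2 CPM for EB knockouts. Control and knockout overlapped at both stages. The log2 fold change was 0.12 (95% interval -0.12 to 0.35) in ESCs and 0.04 (-0.19 to 0.27) in EBs, neither passing. From ESCs to EBs it changed by 0.08 ± 0.10 in control and 0.00 ± 0.10 in knockout cells, neither passing. It passed in ESCs only with knockout ESC replicate 1 left out (0.23, adjusted p = 0.0497).

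Ehmt2 (G9a; ENSMUSG00000013787.15, chr17:34898469-34914052, plus strand) was split between the 2 knockout ESC libraries. It stood at 152.0 and 146.1 CPM for ESC controls and at 183.7 and 114.1 CPM for ESC knockouts, so that 1 knockout library lay above both controls and the other below both. In EBs the libraries lay between 194.7 and 202.4 CPM in both genotypes. The mean change was -0.00 ± 0.17 in knockout ESCs and 0.02 ± 0.17 in knockout EBs (95% interval -0.35 to 0.40). In ESCs the direction turned with the library: without knockout ESC replicate 1 Ehmt2 was lower (-0.40, adjusted p = 0.00167), and without replicate 2 it was higher (0.30, adjusted p = 0.00868). At 60.8% GC it had the highest GC content of the 10 genes. Once the GC trend was taken out of each library the 2 knockout ESC libraries lay at 173.1 and 169.3 CPM. The control ESC libraries then lay at 158.4 and 150.8 CPM, below both, and Ehmt2 did not pass in knockout ESCs in that fit. The ratio of Ehmt2 to Ehmt1 per exon length was 2.18 and 2.04 in control ESCs, 2.62 and 1.37 in knockout ESCs and 2.47 to 2.74 in the 4 EB libraries. Ehmt2 was 0.40 ± 0.17 higher in control EBs than in control ESCs and 0.43 ± 0.17 higher in knockout EBs than in knockout ESCs, with no overlap of libraries, but neither passed (adjusted p = 0.131 and 0.12). With the GC trend removed these values were 0.16 and 0.12, again not passing.

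Of the zinc finger subunits, Wiz varied most. Wiz (ENSMUSG00000024050.18, chr17:32354055-32389439, minus strand) stood at 54.55 and 54.80 CPM for ESC controls, 46.23 and 23.36 CPM for ESC knockouts, 72.21 and 73.64 CPM for EB controls and 61.75 and 60.65 CPM for EB knockouts. Knockout lay below control at both stages without overlap, and knockout ESC replicate 2 lay lowest. Neither difference passed in the main fit: -0.65 ± 0.23 in ESCs (edgeR adjusted p = 0.0899) and -0.25 ± 0.22 in EBs (adjusted p = 0.575). Other settings, with no single library left out, gave EB values of -0.26 to -0.22. The lowest edgeR adjusted p among them was 0.0252, so the EB call also depended on the setting. Leaving out 1 library gave ESC values of -1.24 to -0.25, the latter without knockout ESC replicate 2. With the GC trend removed the ESC value was -0.61 (edgeR adjusted p = 0.00864). The 2 knockout ESC libraries then lay at 44.44 and 29.12 CPM and the control ESC libraries at 56.81 and 56.57 CPM. Wiz was higher in knockout EBs than in knockout ESCs (0.81 ± 0.23, adjusted p = 0.039), a value of 0.40 without knockout ESC replicate 2, and the call was lost without knockout EB replicate 1 (0.148) or replicate 2 (0.12). It was also lost with library totals (0.0579), with a mean of at least 1 CPM (0.0523) and with only the groups compared (0.165). In control cells the same change was 0.42 ± 0.22 (adjusted p = 0.23). Wiz has 4 partial matches of at least 90% identity in other transcripts, of which D10Wsu102e had 12640 counts over the 8 libraries against 6162 for Wiz, so shared reads are possible.

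Zfp644 (ENSMUSG00000049606.16, chr5:106616739-106697287, minus strand), with 39.2% GC, stood at 72.06 and 65.79 CPM for ESC controls, 58.11 and 76.86 CPM for ESC knockouts, 81.89 and 85.25 CPM for EB controls and 65.89 and 66.20 CPM for EB knockouts. The ESC groups overlapped (-0.03 ± 0.13). Knockout EBs lay below control EBs, by a value of -0.34 ± 0.13 that did not pass (adjusted p = 0.152) but did with the GC trend removed (-0.32, adjusted p = 0.0162).

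**Figure D3:**
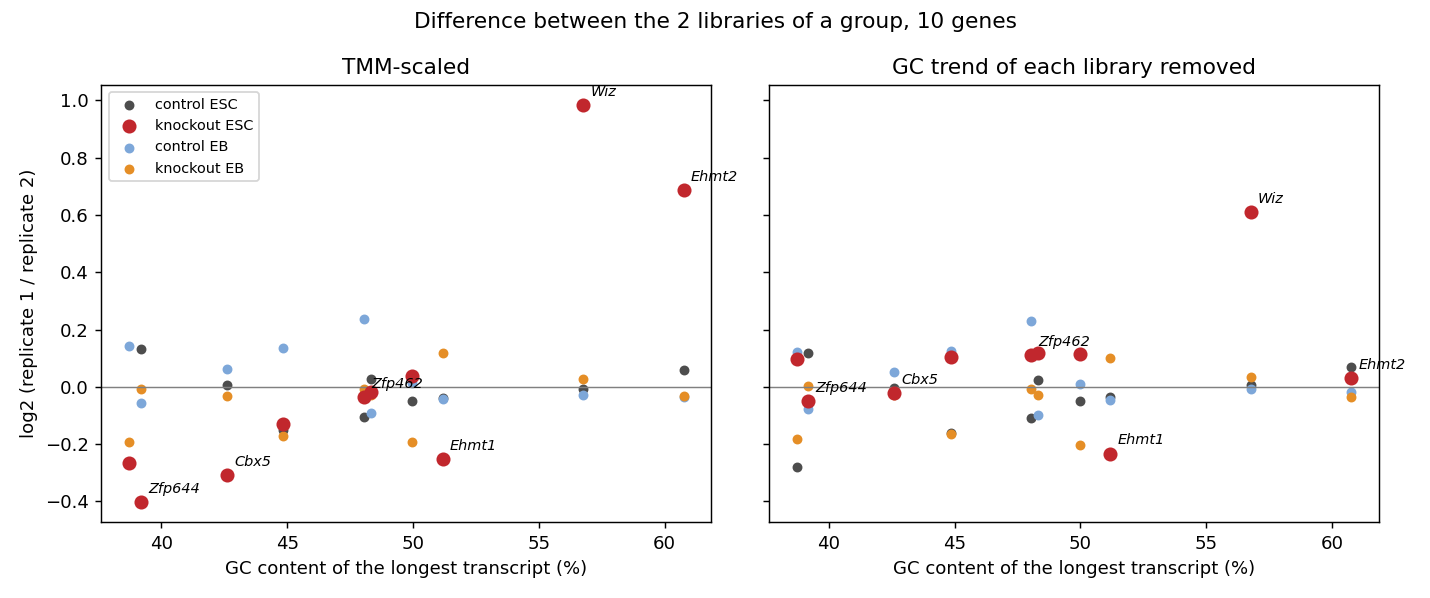
Log2 ratio of replicate 1 to replicate 2 (y axis) for each of the 10 genes against the GC content of its longest transcript (x axis, percent), by group. In knockout ESCs Wiz lies at 0.98 and Ehmt2 at 0.69, and with each library's GC trend removed (right) they lie at 0.61 and 0.03.

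Of the HP1 genes, Cbx1 was the one that passed as lower in the knockout, and it did so at both stages. Cbx1 (HP1 beta; ENSMUSG00000018666.13, chr11:96789127-96808640, plus strand) stood at 351.3 and 390.4 CPM for ESC controls and 255.5 and 279.6 CPM for ESC knockouts. In EBs it stood at 519.2 and 472.8 CPM in the control and 352.0 and 396.7 CPM in the knockout. The knockout libraries lay below the controls at each stage, and knockout EBs reached the range of control ESCs. Cbx1 fell by 0.47 on the log2 scale in knockout ESCs (SE 0.10, edgeR adjusted p = 0.00907) and by 0.41 in knockout EBs (SE 0.10, adjusted p = 0.033). The difference of these effects was 0.06 (95% interval -0.24 to 0.37), not passing. Cbx1 rose from ESCs to EBs in control cells (0.42 ± 0.10, adjusted p = 0.0141) and in knockout cells (0.48 ± 0.10, adjusted p = 0.0088). The ESC call did not survive leaving out control ESC replicate 2 (adjusted p = 0.138). The EB call was lost without any 1 of its libraries, at 0.281 and 0.104 without control EB replicates 1 and 2 and at 0.308 and 0.0609 without knockout EB replicates 1 and 2. The rise in control cells was lost without any 1 of its libraries as well (0.165 and 0.0711 without control ESC replicates 1 and 2, 0.14 and 0.0572 without control EB replicates 1 and 2), and that in knockout cells without knockout EB replicate 2 (0.0859).

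Cbx3 (HP1 gamma; ENSMUSG00000029836.15, chr6:51470360-51483704, plus strand) stood at 137.0 and 164.9 CPM for ESC controls, 116.1 and 139.6 CPM for ESC knockouts, 185.0 and 167.6 CPM for EB controls and 121.2 and 138.4 CPM for EB knockouts. The ESC groups overlapped and the EB groups did not. The log2 fold change was -0.24 ± 0.13 in ESCs (adjusted p = 0.256) and -0.44 ± 0.13 in EBs (adjusted p = 0.0672). In EBs it passed with the GC trend removed (-0.42, adjusted p = 0.0147) and by DESeq2 (adjusted p = 0.0235). Cbx3 has 19 near-identical copies, 18 of them pseudogenes, whose counts summed to 1.64% of its own, so part of its reads may have been split.

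Cbx5 (HP1 alpha; ENSMUSG00000009575.14, chr15:103191544-103239816, minus strand) was the gene of the set that fell with differentiation in both genotypes. It stood at 395.4 and 393.3 CPM for ESC controls, 312.9 and 387.7 CPM for ESC knockouts, 267.2 and 255.7 CPM for EB controls and 213.6 and 218.5 CPM for EB knockouts. All 4 EB libraries lay below all 4 ESC libraries. The fall was 0.59 on the log2 scale in control cells, a value of -0.59 ± 0.10 (edgeR adjusted p = 0.0031), and -0.70 ± 0.10 in knockout cells (adjusted p = 0.00164). The first call was lost without control ESC replicate 2 (0.05004) or control EB replicate 2 (0.0513), and the second held without any 1 of its libraries. Knockout minus control was -0.17 ± 0.10 in ESCs (adjusted p = 0.312) and -0.28 ± 0.10 in EBs (adjusted p = 0.143). Both passed with the GC trend removed, at -0.23 (adjusted p = 0.0134) and -0.27 (adjusted p = 0.00929).

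Per exon length (RPKM, CPM per kilobase of counted exons), the 3 HP1 genes summed to 149.0 and 162.6 in control ESCs, 113.9 and 131.8 in knockout ESCs, 182.0 and 167.0 in control EBs and 126.3 and 140.2 in knockout EBs. The knockout libraries lay below the controls of their stage. The makeup of the sum differed between stages more than between genotypes: Cbx1 held 55.2% and 56.2% of it in control ESCs, 52.5% and 49.7% in knockout ESCs and 65.2% to 66.7% in the 4 EB libraries. Cbx5 held 26.9% to 32.7% in ESCs and 16.3% to 18.8% in EBs, and Cbx3 held 15.3% to 17.7% in all 8 libraries.

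**Figure D4:**
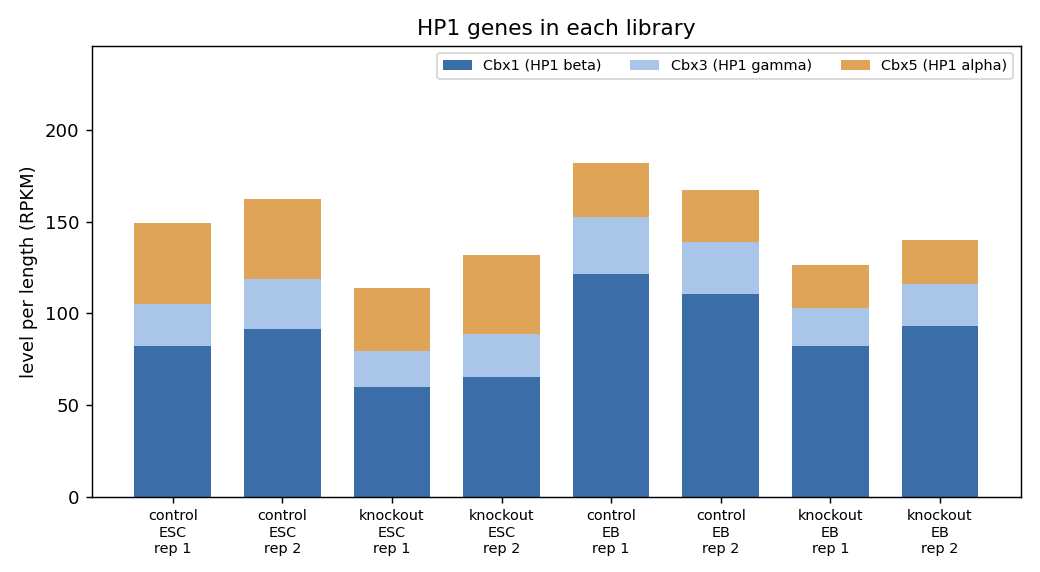
Stacked levels per exon length (RPKM, y axis from 0) of the HP1 genes in each of the 8 libraries. The sum is 113.9 to 140.2 in the 4 knockout libraries and 149.0 to 182.0 in the 4 controls, and the Cbx5 part is smaller in EBs.

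Suv39h1 was the gene whose knockout difference changed with the stage. Suv39h1 (ENSMUSG00000039231.18, chrX:8061171-8074760, minus strand) stood at 21.01 and 21.75 CPM for ESC controls and 33.76 and 32.90 CPM for ESC knockouts. In EBs it stood at 47.87 and 47.45 CPM in the control and 38.71 and 44.21 CPM in the knockout. Knockout libraries lay above the controls in ESCs and below them in EBs. It rose 1.56-fold in knockout ESCs (95% interval 1.30 to 1.87; log2 0.64 ± 0.12, edgeR adjusted p = 0.00498). In knockout EBs the value was -0.20 ± 0.11 (adjusted p = 0.351). The difference of the 2 effects was -0.84 ± 0.16 and passed (edgeR adjusted p = 0.0365), where 1.38% of all genes tested did. In control cells Suv39h1 rose 2.23-fold from ESCs to EBs (1.86 to 2.67; edgeR adjusted p = 0.000114). In knockout cells the value was 1.24-fold (1.04 to 1.48; adjusted p = 0.0916), from the higher starting level.

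The rise in control cells held without any 1 of its libraries. The ESC difference kept a log2 value of 0.61 to 0.66 when libraries were left out, but its call did not survive leaving out either control ESC library (adjusted p = 0.0727 and 0.0661). Over all genes, the calls fell from 2483 to 859 and 756 in the same fits. The test of the difference was lost without control ESC replicate 1 (0.239) or 2 (0.253), control EB replicate 1 (0.178) or 2 (0.172), or knockout EB replicate 1 (0.335) or 2 (0.0984). It was also lost with the replicate number as a block (0.0619). An annotated antisense gene, Gm14820, overlaps 767 bases, 14.6%, of the Suv39h1 exons. With the strand setting of the counting not given in the sources used here, reads from the 2 genes cannot be told apart there. Gm14820 stood at 3.43 to 6.62 CPM. Its value was -0.61 ± 0.26 in knockout ESCs (edgeR adjusted p = 0.151) and 0.39 ± 0.25 in knockout EBs (0.416), both opposite in sign to those of Suv39h1. From ESCs to EBs it was -0.12 ± 0.25 in control cells (0.789), again opposite. In knockout cells it was 0.88 ± 0.26 and passed (0.0423), with the same sign as Suv39h1. The part of Gm14820 in the Suv39h1 values was not tested.

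Setdb1 (ENSMUSG00000015697.14, chr3:95323525-95357202, minus strand) varied little. It stood at 174.7 and 171.4 CPM for ESC controls, 150.4 and 152.4 CPM for ESC knockouts, 153.6 and 163.7 CPM for EB controls and 150.0 and 152.9 CPM for EB knockouts. Control ESCs lay above the other 6 libraries. The log2 fold change was -0.19 (95% interval -0.38 to -0.01) in knockout ESCs, not passing (adjusted p = 0.164), and -0.07 (-0.25 to 0.12) in knockout EBs. It passed in ESCs with the GC trend removed (-0.25, adjusted p = 0.0259). Its exons overlap those of Cers2 on the other strand by 75 bases, and Gm4349 is 99.4% identical over part of its length.

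In the comparison of stages, 4 of the 10 genes passed in control cells, Suv39h1 and Cbx1 higher and Cbx5 and Zfp462 lower in EBs, against a background of 18.2% of all genes tested. In knockout cells 3 passed, Wiz and Cbx1 higher and Cbx5 lower, against 15.3%. The differentiation medians of the 10 genes were 0.25 in control and 0.01 in knockout cells, beside -0.01 and -0.00 over all genes. The knockout median was 0.15 without both libraries that stood apart and 0.13 with the GC trend removed. Both EB libraries lay above both ESC libraries for 7 of the 10 genes in control cells and below them for 3, where 31.8% and 33.1% of all genes tested did so. In knockout cells they lay above for 4 and below for 2, where 28.9% and 29.2% did so. The comparisons of stages and of genotypes share libraries and are not independent. Neither library that stood apart belongs to a control group, and without them the median in control cells was again 0.25.

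Per exon length the genes kept a similar order in the 4 groups. Cbx1 was highest everywhere, from 62.6 ± 3.998 RPKM (SD, n = 2) in knockout ESCs to 116.1 ± 7.67 RPKM in control EBs. Cbx5 was second in ESCs (43.8 ± 0.16 RPKM in control) and Ehmt2 in EBs (35.9 ± 0.65 RPKM in control). Setdb1 and Cbx3 were neighbours in ESCs, at 25.3 ± 0.35 and 25.2 ± 3.30 RPKM in control, and their libraries overlapped, as did those of Cbx3 and Cbx5 in control EBs. Zfp462 ranked above Ehmt1 in control ESCs (17.8 ± 0.91 against 12.9 ± 0.24 RPKM), overlapped with it in control EBs, and ranked below it in both knockout groups. Suv39h1 was lowest in control ESCs at 4.06 ± 0.10 RPKM, below Zfp644 and Wiz. In the other 3 groups it ranked above both, at 6.32 ± 0.12 RPKM in knockout ESCs, 9.04 ± 0.06 RPKM in control EBs and 7.87 ± 0.74 RPKM in knockout EBs. In knockout ESCs Wiz was lowest at 3.76 ± 1.75 RPKM and overlapped with Zfp644, the order there resting on replicate 2.

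The profile of Zfp462 over the 8 libraries was nearest to that of Rest among 10671 named protein-coding genes, ranked by the root mean square difference of centred log2 CPM. Rest encodes a repressor of neuronal genes. The difference from Rest was 0.04, and Rest had means of 492.0 CPM for ESC controls, 278.7 CPM for ESC knockouts, 357.6 CPM for EB controls and 272.7 CPM for EB knockouts. Wasf3, Pitpnc1, Elmo1 and Ccdc73 followed at 0.09 to 0.11. The genes nearest to Cbx1 were Btbd9, Fam162a, Ccdc40, Armcx4 and the lactate dehydrogenase gene Ldha, at 0.07 to 0.09. These are descriptions over 8 libraries that share groups and stages.

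Other genes of the pathway were counted in 6 lists that held 60 tested genes. In knockout ESCs 3 of the 60 passed higher and 9 lower, where 8.3% and 6.2% of all genes tested did so. In knockout EBs 2 passed higher and 3 lower, against 4.75% and 2.04%. Among other H3K9 methyltransferases and cofactors, 2 of 11 were lower in knockout ESCs: Suv39h2, the relative of Suv39h1 (-0.43 ± 0.12), and Cdyl, a chromodomain corepressor (-0.42 ± 0.11). Suv39h2 stood at 40.30 and 39.07 CPM in the control and 28.29 and 30.79 CPM for ESC knockouts, opposite in direction to Suv39h1. The Suv39h2 call was lost by DESeq2 (adjusted p = 0.0585), with the replicate number as a block (0.0545) and with only the groups compared (0.147). The list's median was -0.17 there and -0.02 in EBs, where the PR-domain gene Mecom alone passed (1.67 ± 0.41), at 0.86 and 2.27 CPM in the control and 4.52 and 5.33 CPM in the knockout.

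Partners of HP1 and of the Adnp complex had 4 of 12 genes lower and none higher in knockout ESCs, with a median of -0.24. These were Chd4, the remodeller of the NuRD and Adnp complexes (-0.30 ± 0.08), Ahdc1 (-0.78 ± 0.20), the HP1-binding gene Pogz (-0.43 ± 0.12) and Adnp2 (-0.34 ± 0.10). The Adnp2 call was lost by DESeq2 (adjusted p = 0.068), with the block (0.06), with library totals (0.0547), with no low-count filter (0.0655), with a mean of at least 1 CPM (0.0548) and with only the groups compared (0.163). That of Pogz was lost with library totals (0.0501), a mean of at least 1 CPM (0.0537) and only the groups compared (0.132). Ahdc1 stood at 87.21 and 94.11 CPM for ESC controls and 67.81 and 37.92 CPM for ESC knockouts, with replicate 2 the lower. In knockout EBs Chaf1b, a subunit of the histone chaperone CAF-1, was lower (-0.36 ± 0.09) and the median was -0.16. Of the genes listed as H3K9 demethylases, 3 of 10 were lower and none higher in knockout ESCs, with a median of -0.30. The lower genes were Kdm1a (-0.53 ± 0.08), Kdm3a (-0.51 ± 0.12) and Kdm4c (-0.44 ± 0.09). Without both libraries that stood apart the median was -0.16. With the GC trend removed 6 were lower and 1 higher. In that fit 12.2% of all genes tested were lower and 10.9% higher, in place of 6.2% and 8.3%. The higher demethylase was Phf2, named after its values were seen. Kdm1a, which encodes LSD1, stood at 343.4 and 345.8 CPM in the control and 251.3 and 226.4 CPM for ESC knockouts. In knockout EBs 0 demethylases passed by edgeR, 2 had an unadjusted p under 0.05, 0 passed by DESeq2, and the median was -0.06.

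Among HUSH, MORC and ATRX-DAXX genes 0 of 10 passed by edgeR in knockout ESCs, where 4 had an unadjusted p under 0.05 and 0 passed by DESeq2 (median -0.18). With the libraries that stood apart left out, 6 of the 10 were lower (median -0.28), where 9.27% of all genes tested were. In EBs the HUSH subunit gene Pphln1 was lower. It stood at 43.81 and 44.17 CPM for ESC controls, 42.14 and 59.61 CPM for ESC knockouts, 110.9 and 103.0 CPM for EB controls and 48.57 and 49.54 CPM for EB knockouts. Control EBs thus stood alone. The knockout effect in EBs was -1.12 ± 0.14 (edgeR adjusted p = 0.00131), and it differed from that in ESCs by -1.33 ± 0.20 (adjusted p = 0.0139). The latter call was lost without control ESC replicate 1 (0.177) or 2 (0.182), control EB replicate 1 (0.148) or 2 (0.13), or knockout EB replicate 1 (0.0886).

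Of 7 readers coupled to DNA methylation, the de novo methyltransferase gene Dnmt3b alone passed, higher in knockout ESCs (0.43 ± 0.08) and lower in knockout EBs (-0.76 ± 0.08). Dnmt3b stood at 186.8 and 204.1 CPM for ESC controls, 274.7 and 251.9 CPM for ESC knockouts, 1261 and 1388 CPM for EB controls and 782.2 and 785.9 CPM for EB knockouts. Its knockout effect differed between the stages by -1.19 ± 0.12 (adjusted p = 0.0036), a call lost without control ESC replicate 1 (0.096) or 2 (0.0821) or control EB replicate 2 (0.071). Dnmt3b is also 1 of the 6 epiblast markers.

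Of 10 tested genes described as silenced through G9a-GLP, most of them germline genes, 2 were higher in knockout ESCs and none lower. Over all genes tested 8.3% passed higher and 6.2% lower. The median of the list was 0.49 beside -0.03 over all genes. Without both libraries that stood apart 9 of these genes were tested, the median was 0.17 and Tuba3b alone passed. Magea8 rose from 0.16 and 0.37 CPM to 1.53 and 1.75 CPM (2.53 ± 0.66) and Tuba3b from 3.58 and 3.19 CPM to 7.22 and 5.68 CPM (0.93 ± 0.24). Magea8 had 21 and 24 counts in the knockout ESC libraries and 1 to 7 in the others. It thus had enough counts to be tested only through the group where it was high. Its call and its part in the median are not separate from that filter. In knockout EBs Tuba3a passed (0.40 ± 0.11). Its call was lost by DESeq2 (adjusted p = 0.0961), under median-of-ratios scaling (0.0533), with no low-count filter (0.0764) and with the replicate block (0.0765). With the GC trend removed Tuba3a passed as higher and Mael as lower in knockout EBs. A further 5 genes of the list, all of the Magea family, had at most 9 counts in any library and were not tested, which leaves most of that family out of the description. The Magea8 call was lost without any 1 of the 4 ESC libraries and by DESeq2, and levels of that size are near the limit of detection.

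**Figure D5:**
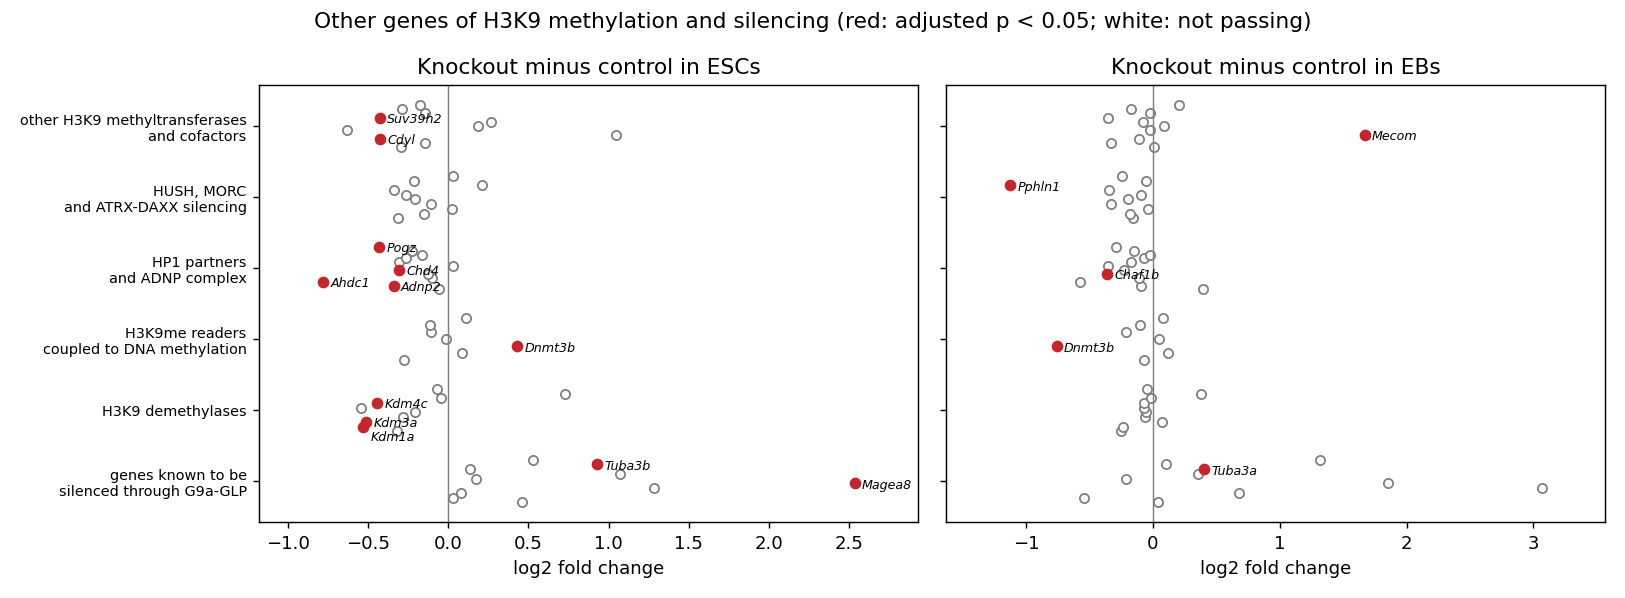
Log2 fold changes (x axis) of the 60 tested genes in 6 other lists, knockout minus control, in ESCs (left) and EBs (right). Each point is 1 gene, red where it passed an adjusted p of 0.05. In ESCs all 9 genes that passed lower belong to the methyltransferase, HP1 partner and demethylase lists, and in EBs Pphln1 lies at -1.12.

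Leaving out 1 control library ended most of the list calls in knockout ESCs. Without control ESC replicate 1, 11 of the 12 calls were lost (adjusted p from 0.0975 to 0.247), and without replicate 2, 10 were lost (0.0684 to 0.263). Kdm1a kept its call in each case. Kdm1a and Magea8 were also the 2 genes still called when only the ESC groups were fitted. Without knockout ESC replicate 1 the calls of Magea8 and Tuba3b were lost (0.0729 and 0.0701), and without replicate 2 that of Magea8 (0.12). In knockout EBs Pphln1 and Dnmt3b kept their calls without any 1 library. Chaf1b and Tuba3a lost theirs without any 1 of the 4 libraries (0.163 to 0.325). Mecom lost its call without control EB replicate 1 (0.248) or knockout EB replicate 1 (0.113) or 2 (0.163).

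From ESCs to EBs, 11 of the 60 list genes rose and 6 fell in control cells, where 8.6% and 9.63% of all genes tested did so. In knockout cells 9 rose and 2 fell, where 8.23% and 7.11% did. The DNA methyltransferase genes rose most among them, in log2 units: Dnmt3b by 2.76 ± 0.09 in control and 1.57 ± 0.08 in knockout cells, and Dnmt3a by 1.64 ± 0.10 and 1.67 ± 0.10. Pphln1 rose by 1.28 ± 0.14 in control cells. Fam208a, which encodes the HUSH subunit TASOR, fell in control (-0.69 ± 0.13) and in knockout cells (-0.75 ± 0.13). Chd4 rose in both (0.39 ± 0.08 and 0.47 ± 0.08), as did L3mbtl2 (0.44 ± 0.10 and 0.57 ± 0.11). Without 1 of the 4 control libraries 12 or 13 of the 17 control calls were lost (adjusted p from 0.0558 to 0.318). Pphln1, Dnmt3a and Dnmt3b kept theirs in all 4 cases. In knockout cells 6 of 11 were lost without knockout EB replicate 1 (0.0537 to 0.193) and 5 without replicate 2 (0.0577 to 0.195), and none without either knockout ESC library.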

How the data were processed

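RNA of 8 poly(A)-selected libraries, 2 in each of 4 groups, was prepared with a TruSeq RNA kit and sequenced, per the labels' protocols. The authors deposited raw counts per gene, with exon lengths per the file headers. The build mm10 and the tools HISAT2, featureCounts and DESeq2 are listed, without their roles, in the submitters' processing notes. Their versions, the strand setting and how shared reads were treated were not given in the sources used here. Gene symbols came from GENCODE M21, which matched 55141 of 55401 IDs, and 23376 genes had 0 counts in every library.

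Counts were fitted with edgeR 4.0.16 (quasi-likelihood test, TMM factors, filterByExpr, 1 mean per group over all 8 libraries). P-values were two-sided and adjusted by Benjamini-Hochberg over 17125 genes, and a gene was called at an adjusted p under 0.05. The common biological coefficient of variation was 0.132. Alternatives were other scaling and filters, DESeq2 1.42.0, the replicate number as a block, removal of each library's GC trend (spline with 5 degrees of freedom), and libraries left out. Where that left 1 library in a group, its spread was assumed to be like that of the other groups. The spread is estimated over all groups together, so leaving out knockout libraries can also alter calls between control groups.

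The members and lists were chosen with earlier results of these data known. The text names the 10 genes whatever their result, called genes of 6 pathway lists (up to 5 per list and comparison, smallest adjusted p first), and the 5 protein-coding genes of at least 5 CPM nearest in profile to Zfp462 and to Cbx1. Counts limit precision through sampling, and no interval covers differences between cultures that were not replicated.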

Additional observations from a re-analysis of the deposited data

Results flagged for a closer look

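Among the genes named, 3 had a knockout effect that differed between EBs and ESCs by the test of the difference itself (edgeR, adjusted over all genes tested). The difference, in log2 units, was -0.84 for Suv39h1, which lay higher in both knockout ESC libraries and lower in both knockout EB libraries than in the controls of the same stage. It was -1.33 for Pphln1, where control EBs were higher than the other 3 groups. It was -1.19 for Dnmt3b, which was higher in knockout ESCs and lower in knockout EBs. The sums of the epiblast and extraembryonic endoderm markers also differed between genotypes at these stages, and their part in the 3 results was not tested. The epiblast sum is not separate from Dnmt3b, which is in that list and made up 1261 of its 2014 CPM in control EB replicate 1. In knockout ESCs Dnmt3b and Fgf5 of that list lay above the controls, while Otx2, Pou3f1, Sall2 and Pim2 lay below them. The test of the difference called 237 genes in all, and edgeR called 0 without control ESC replicate 1, control ESC replicate 2 or control EB replicate 2, where 1566, 1391 and 2137 genes had an unadjusted p under 0.05. DESeq2 called 392 with all 8 libraries.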

How the results depend on the processing

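Among 740 alternative values of the 10 genes' log2 fold changes, 600 kept direction and side of the threshold, 52 changed sign while passing in neither fit, 53 newly passed, 33 no longer passed and 2 reversed. Both reversals were of Ehmt2 in knockout ESCs, at 0.30 without knockout ESC replicate 2 (-0.40 without replicate 1) and 0.32 without both libraries that stood apart. The cause was not tested. No scaling moved the median of all genes by more than 0.06.

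For the 10 genes, knockout ESCs gave 6 calls in place of 3 with the GC trend removed, with or without the replicate block, and 6 without both libraries that stood apart. Knockout EBs gave 5, 5 and 5 in place of 2, and 6 when only the groups compared were fitted. The control stage comparison gave 8 in place of 4 with only the groups compared and 8 without both libraries, and the knockout stage comparison gave 1 in place of 3 with only the groups compared. For the 6 lists, knockout ESCs gave 28, 28 with the block, 23 without both libraries and 2 with only the groups compared, in place of 12. Knockout EBs gave 14 with the GC trend removed, 13 with the block added, 14 without both libraries, 17 with only the groups compared and 9 with no low-count filter, in place of 5. The control stage comparison gave 27 with only the groups compared and 28 without both libraries in place of 17. The knockout stage comparison gave 22, 21 with the block, and 2 with only the groups compared, in place of 11. The difference of the knockout effect gave 4, 4 with the block, and 6 without both libraries, in place of 2. Leaving out 1 library gave 1 to 7, 0 to 1, 1 to 3, 1 to 5 and 0 to 4 calls of the 10 genes for knockout ESCs, knockout EBs, the control and knockout stage comparisons and the difference, and 1 to 23, 2 to 3, 4 to 5, 5 to 30 and 0 to 13 calls in the lists. Zfp462 then ranged from -0.91 to -0.81, -0.58 to -0.35, -0.54 to -0.31, -0.05 to -0.02 and 0.27 to 0.51. Calls over all genes tested moved between fits too. With the GC trend removed 23.1% passed in knockout ESCs and 13.7% in knockout EBs. The knockout stage comparison then had 21.8%, and the difference 4.01% in place of 1.38%. With only the groups compared the shares were 8.4%, 17%, 34.6% and 5.02% for the first 4 comparisons. In the main fit they were 14.5%, 6.8%, 18.2% and 15.3%.

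Over all genes, with the GC trend removed 3948 genes were called in knockout ESCs in place of 2483, 2353 in knockout EBs in place of 1164 and 686 for the difference in place of 237. With only the groups compared the counts were 1358, 2720, 5571 and 818 for the first 4 comparisons. Without both libraries they were 1923 in knockout EBs, 5557 in the control stage comparison and 769 for the difference, with no low-count filter 2094 and 704 in knockout EBs and for the difference, and by DESeq2 392 for the difference. The block with the GC trend removed gave 3799, 2183 and 642. Leaving out 1 library gave 756 to 4729, 236 to 643, 830 to 1257, 843 to 5485 and 0 to 2040 calls in the 5 comparisons. The split of higher and lower calls moved by over 10 percentage points with the GC trend removed, to 1859 and 2089 from 1421 and 1062 in knockout ESCs and to 1383 and 970 from 814 and 350 in knockout EBs, and with library totals, to 1137 and 1567 from 1410 and 1217 in the knockout stage comparison. With only the groups compared it was 951 and 407 in knockout ESCs and 1449 and 1271 in knockout EBs, and without both libraries 1065 and 858 in knockout EBs.

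Replicate numbers were shared by the labels but did not pair the libraries: deviations of same-numbered libraries had correlations of -0.057 to 0.037, and -0.238 between control and knockout EBs. As a replicate block they left 0 calls among the 10 genes for the difference in place of 1, 10 list calls in knockout ESCs in place of 12, and 3 list calls in knockout EBs in place of 5, also 3 with the knockout EB numbers crossed. The crossing, and the alternatives run on the lists, were chosen after seeing the data. With 2 libraries a group, differences of the size seen for Cbx3, Wiz and Zfp644 passed or missed by setting.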
